A study of Homo sapiens with 18 samples.

Results

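Day 6 embryoid bodies grown from human embryonic stem (ES) cells were compared with undifferentiated ES cells of the same line. The comparison used 6 of the series' 18 Affymetrix arrays, chosen by their titles and descriptions: 3 RNA pools of undifferentiated H9 cells and 3 RNA pools of embryoid bodies at day 6. H9 is an established human ES cell line, carried here without any genetic change named in the labels, so that each group is a set of pools of 1 line. Each ES pool combined RNA of cells at 3 passages: 27, 28 and 31 for pool 1, 24, 25 and 26 for pool 2, and 26, 28 and 29 for pool 3. The embryoid bodies of day 6 pools 1 and 2 were grown from cells of passages 27, 28 and 31, and those of pool 3 from passages 26, 28 and 29. The title of ES pool 1 alone names an RNA extraction (Trizol with RNeasy) and gives no pool number, so that the number 1 was given to it here. The medium of either stage is not given in the sources used here. The other 12 arrays held neuroepithelial cells at days 10 and 17, with or without basic fibroblast growth factor. They entered the estimate of the spread and the choice of 1 probe set per gene, and the means of the cells without added factor are given for a few genes beside those of day 6.

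An embryoid body is an aggregate of ES cells that floats in suspension, where the cells begin to differentiate. ES cells keep their state through a network of transcription factors that includes OCT4, SOX2 and NANOG, and human ES cells also depend on signals of the Nodal and activin branch and of fibroblast growth factor (FGF). When these signals wane and bone morphogenetic protein (BMP) signals are held low, cells of this kind tend to take on the character of the anterior neural plate, the sheet from which the forebrain and eyes form, while BMP favours surface ectoderm and extraembryonic tissue.

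On the 6 arrays the 2% trimmed mean of the signal was 150.021 to 150.026 and the median 25.17 to 28.95, so that the arrays were on 1 scale. Across genes, log2 signals correlated at 0.954 to 0.973 among the ES pools, at 0.970 to 0.978 among the day 6 pools and at 0.937 to 0.965 between the groups, with ES pool 2 closer to day 6 pool 2 (0.965) than to ES pool 3 (0.954); genes are not independent replicates. The ratio of the 3' to the 5' probe sets of ACTB, a measure of RNA integrity, was 2.27 and 2.64 in pool 2 of the ES and day 6 groups and 1.27 to 1.74 in the other 4 pools. Signals are linear, are given in the order of pools 1, 2 and 3, ES cells before day 6, and come without detection calls. In 179 genes that rose the ES mean was under 50, and in 98 that fell the day 6 mean was, where the lower side may be no more than background. Changes are day 6 minus ES cells on the log2(signal + 16) scale, which understates the changes of low genes, with the standard error of a limma fit and its p-value adjusted by the Benjamini-Hochberg method over 19775 genes; a gene passed the test at an adjusted p under 0.05. Each gene is read from the 1 probe set with the highest mean, and where the mean change over all its probe sets did not pass or was smaller by more than 1.5 times, that probe set mean is given beside the change. The labels do not say that pools of a group came from separate cultures, so that the p-values speak only of the spread among these pools. In bulk RNA, fewer cells of a type and less RNA per cell cannot be told apart.

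Between ES cells and day 6, 762 of 19775 genes passed the test (3.85%): 434 were higher (2.19%) and 328 lower (1.66%) in embryoid bodies. The median change of all genes was 0.00. In 761 of the 762 the 3 pools of each group did not overlap, as was true of 19.8% of all genes (10.1% higher and 9.77% lower). At least 4-fold changes were found in 88 higher and 43 lower genes, and at least 8-fold changes in 26 and 8. A fit that added the pool number as a block called 1454 genes (7.35%), 832 of them higher (4.21%) and 622 lower (3.15%), and these included all 762. The call was kept in all 6 fits that left out 1 array by 372 genes, 226 higher and 146 lower. It was kept by 58 of the 60 largest changes (30 in each direction), the exceptions being TAGLN and LGALS1. These 60 were taken from genes past the test whose groups do not overlap and whose approved symbol is no LOC, orf or FAM placeholder. Genes named below kept their call in all 6 fits unless said otherwise. The gene lists below were chosen with earlier results of these data known, so that their counts are descriptions.

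**Figure D1:**
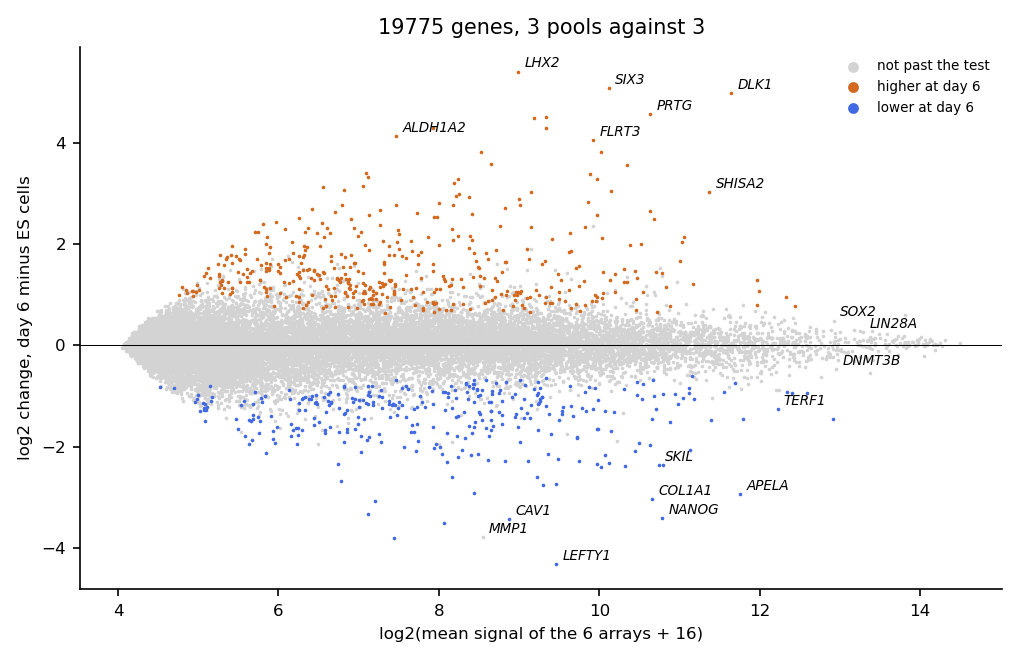
Each point is 1 of 19775 genes, with the log2 of its mean signal on the 6 arrays plus 16 on the x axis and its log2 change from ES cells to day 6 on the y axis; 434 genes higher at day 6 are orange, 328 lower genes blue and the others grey. LHX2 (5.40) and SIX3 (5.08) lie at the top and LEFTY1 (-4.32) at the bottom, while MMP1 (-3.79) did not pass the test.

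The largest increase was in LHX2, a LIM homeobox factor of the forebrain and eye field. Its signal was 2.18, 1.84 and 17.7 in ES cells and 1423, 601 and 913 at day 6 (log2 change 5.40 ± 0.29, adjusted p = 3.09e-08). SIX3, a homeobox factor needed for the anterior forebrain and eye, rose from 27.1, 119 and 27.7 to 2251, 2010 and 2146 (log2 change 5.08 ± 0.32, adjusted p = 9.53e-08). The ES pools of LHX2 were near the bottom of the array's range, and all 3 day 6 pools were far above them, pool 2 least so. NANOG, a core factor of the ES cell state, fell from 2898, 3080 and 3632 to 370.3, 246 and 255 (log2 change -3.41 ± 0.31, adjusted p = 4.08e-06). LEFTY1, a secreted inhibitor and target of Nodal signalling, fell from 1500, 809 and 1669 to 64.7, 30.4 and 54.1 (log2 change -4.32 ± 0.40, adjusted p = 4.14e-06). All 3 day 6 pools were far below all 3 ES pools for both genes.

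**Figure D2:**
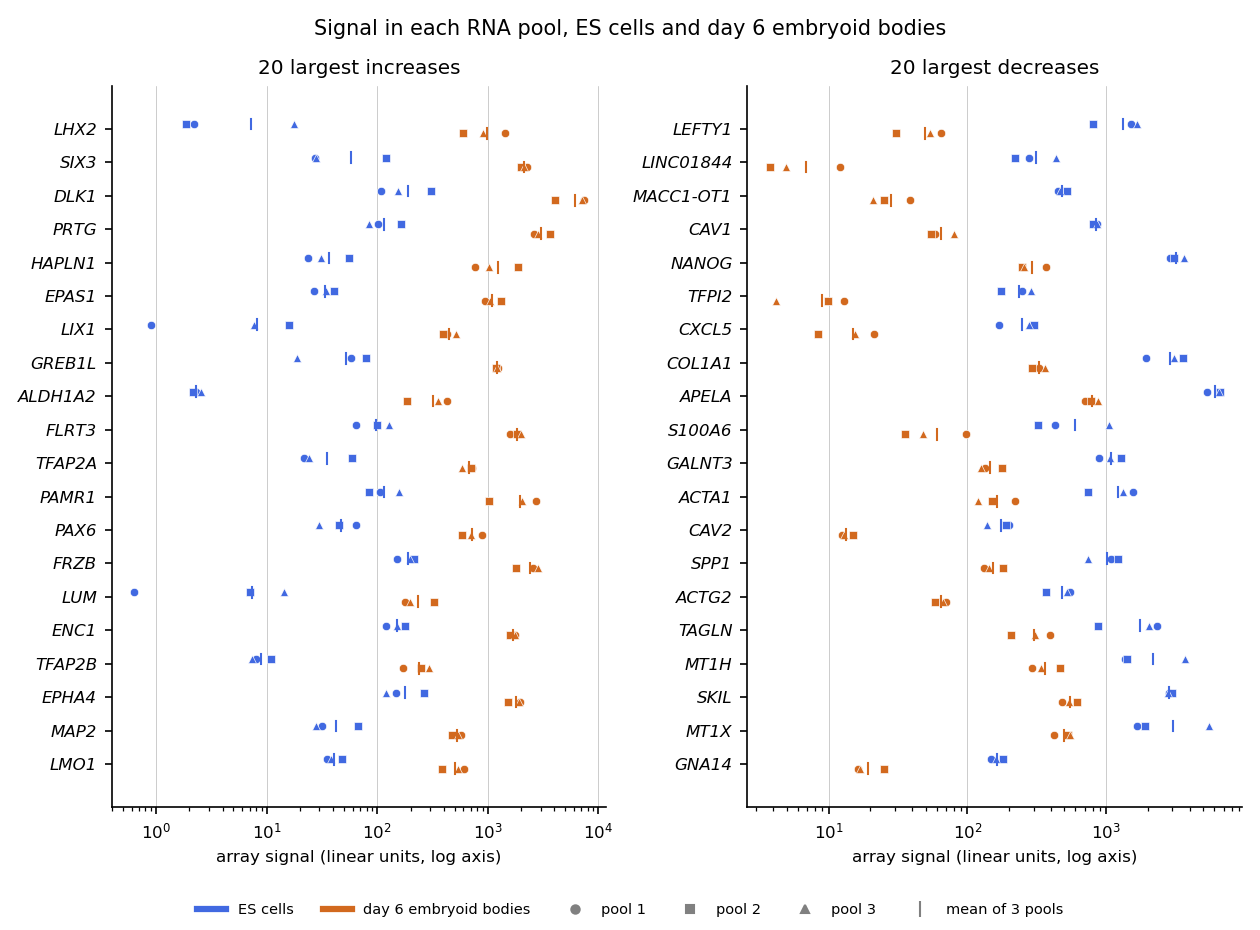
Array signal (x axis, log scale) of the 20 genes with approved symbols that rose most and the 20 that fell most, with a circle, square and triangle for pools 1, 2 and 3 of ES cells (blue) and of day 6 embryoid bodies (orange) and a bar at each group's mean. The 40 were taken from genes past the test whose groups do not overlap, so that their separation is no result. The ES pools of MT1X and S100A6 are widely spread, with pool 3 highest.

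Genes of many functions accompanied LHX2 and SIX3 among the largest increases. DLK1, a membrane protein related to the Notch ligands and an imprinted gene, rose from 107, 308 and 156 to 7399, 4038 and 7121 (log2 change 4.98 ± 0.39). PRTG, an immunoglobulin superfamily receptor of early neural tissue, rose from 101, 164 and 83.5 to 2605, 3629 and 2848 (4.56 ± 0.27). FLRT3, a leucine-rich membrane protein that binds FGF receptors, rose from 63.8, 100.2 and 126 to 1595, 1849 and 2012 (4.06 ± 0.22), and GREB1L from 58.2, 79.5 and 18.8 to 1227, 1197 and 1209 (4.29 ± 0.30; probe set mean 2.49). The day 6 pools of GREB1L and FLRT3 lay close together and those of DLK1 less so, pool 2 being the lowest. LIX1 (mean signal 8.15 in ES cells and 446 at day 6) and PAMR1 (116 and 1937) rose by 4.30 and 3.81. ENC1, an actin-binding protein of the early nervous system, rose by 3.39, LMO1, a LIM-only cofactor of transcription, by 3.20, and LGI1, a secreted neuronal protein, by 3.13. CAPN6, a calpain that lacks protease activity, rose by 3.03 (probe set mean 1.75), and FJX1, a relative of the Drosophila four-jointed kinase, by 2.88. Among the largest decreases were TFPI2, an inhibitor of serine proteases (-3.33 ± 0.41), GALNT3, an enzyme that starts O-linked glycans (-2.76 ± 0.22; probe set mean -1.37), SPP1, the matrix phosphoprotein osteopontin (-2.59 ± 0.32), and GNA14, a G protein subunit (-2.34 ± 0.24). So were RASL11B, a Ras-like GTPase (-2.29 ± 0.30; probe set mean -1.30), AK4, a mitochondrial adenylate kinase (-2.28 ± 0.23), and IER3, an immediate early gene (-2.26 ± 0.32). LINC01844, a long intergenic noncoding RNA, fell from 277, 220.3 and 431 to 12.02, 3.76 and 4.92 (log2 change -3.79 ± 0.34, adjusted p = 4.08e-06), the largest called decrease after LEFTY1. MACC1-OT1, a transcript that overlaps another gene, fell from 448, 518 and 466 to 38.7, 24.98 and 20.9 (-3.50 ± 0.25), and FOXD3-AS1, which lies antisense to FOXD3, fell as well (-2.21).

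The pluripotency network did not move together. Of its transcription factors, 2 of 20 measured fell and 2 rose, of its RNA-binding and chromatin genes 5 of 17 fell and 0 rose, and of its surface and secreted genes 7 of 24 fell and 2 rose; their median changes were 0.23, -0.42 and -0.39. Beside NANOG, FOXD3, a forkhead factor of ES cells and neural crest, fell (-1.15 ± 0.27; probe set mean -0.61, no call), a call lost without ES pool 1 or 3 or day 6 pool 2 or 3 (adjusted p up to 0.103). HESX1, which marks both the primed ES cell state and the anterior neural plate, rose from 467, 565 and 408 to 2712, 2545 and 3074 (2.50 ± 0.32). SALL1, a zinc finger factor, rose by 1.50, a call lost without day 6 pool 1 (adjusted p up to 0.0792).

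Several factors that define ES cells did not pass the test. LIN28A, an RNA-binding protein that blocks let-7 maturation, read 8796, 9722 and 8853 in ES cells and 10774, 10149 and 11770 at day 6 (log2 change 0.26 ± 0.24, adjusted p = 0.822, 95% interval -0.26 to 0.77). The signal of SOX2 was 6163, 7306 and 5891 in ES cells and 9236, 8270 and 9584 at day 6 (95% interval 0.12 to 0.85). DNMT3B, a de novo DNA methyltransferase, read 9571, 8872 and 9178 in ES cells and 7490, 6271 and 6174 at day 6 (95% interval -0.88 to -0.07), with the groups apart but no call. ZFP42 (-0.30), L1TD1 (-0.42), SALL4 (0.45), KLF4 (0.04) and TERT (-0.04) did not pass the test either, and nor did OTX2 (2821 and 4080, 0.55), a homeobox factor of both ES cells and the anterior neural plate, except with the block (adjusted p = 0.0377). No probe set names POU5F1, the gene of OCT4, alone. A probe set named for its near-identical pseudogene POU5F1P3 fell from 3333, 2010 and 3001 to 1021, 812 and 1001 (-1.52 ± 0.21), which gene it read being uncertain. Other probe sets named for relatives of POU5F1 were called lower as well, with the same uncertainty. Not all of them kept the call without any 1 array.

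**Figure D3:**
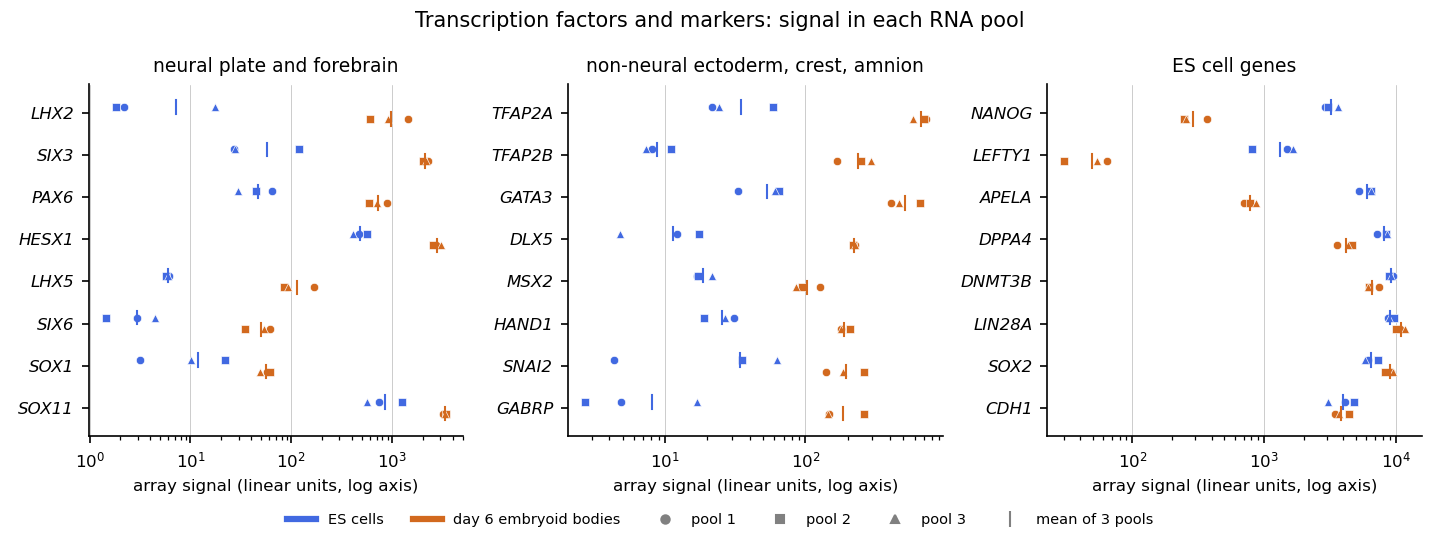
Array signal (x axis, log scale) of 8 genes of the neural plate and forebrain, 8 of non-neural ectoderm, neural crest and amnion, and 8 of ES cells, by pool (circle, square and triangle for pools 1, 2 and 3) in ES cells (blue) and day 6 embryoid bodies (orange), with a bar at each mean. NANOG, LEFTY1, APELA and DPPA4 are lower at day 6 in every pool, while the pools of CDH1 overlap and LIN28A and SOX2 lie slightly higher at day 6 and did not pass the test.

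The RNA-binding and chromatin members that fell all kept their call without any 1 array. DPPA2, a developmental pluripotency gene, fell (-1.91), and DPPA5, another, from 52.1, 66.4 and 117 to 0.991, 3.17 and 11.1 (-2.13). DPPA4, the partner of DPPA2, fell from 7213, 8419 and 8642 to 3565, 4656 and 4357 (-0.95 ± 0.17). POLR3G, an RNA polymerase III subunit typical of ES cells, fell from 1391, 1614 and 1503 to 516, 713 and 597 (-1.29 ± 0.24), and TERF1, a telomere-binding protein, from 7066, 6750 and 6366 to 2855, 2838 and 2715 (-1.26 ± 0.21). Among the surface and secreted members, APELA, the peptide hormone ELABELA, fell from 5281, 6543 and 6479 to 706, 777 and 868 (log2 change -2.93 ± 0.21, adjusted p = 4.12e-07). GAL, the neuropeptide galanin, fell from 2093, 1022 and 1906 to 374, 232 and 323 (-2.34 ± 0.28; probe set mean -1.33). CD9, a tetraspanin, fell from 2085, 1675 and 2988 to 443, 568 and 503 (-2.09 ± 0.39; probe set mean -0.77), although its 3 probe sets ran from -2.09 to -0.01. CXCL5, a chemokine, fell from 169, 299.8 and 278 to 21.2, 8.42 and 15.5 (-3.08 ± 0.38; probe set mean -1.78). PODXL, which carries the TRA-1 antigens, was lower (-0.94), a call lost without day 6 pool 1 or 3 (adjusted p up to 0.0544). The same held for NTS, neurotensin (-1.89), whose call was lost without ES pool 1 or 3 or day 6 pool 1 or 2 (adjusted p up to 0.102). It held for GRPR too, the receptor of gastrin-releasing peptide (-1.79), whose call was lost without any 1 of the 6 arrays (adjusted p up to 0.0848). SFRP2, a secreted Wnt antagonist made by ES cells, rose from 1031, 836 and 1027 to 3959, 2652 and 2780 (1.67 ± 0.27).

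Nodal, activin and TGF-beta ligands act through receptor kinases and SMAD2 and SMAD3, whose targets include their own inhibitors. Of the inhibitors, LEFTY1 and PMEPA1, which sequesters receptor SMADs, fell; PMEPA1 read 213, 165 and 221 in ES cells and 50.5, 29.2 and 50.5 at day 6 (-1.87 ± 0.31). SKIL, a SMAD corepressor that the pathway itself induces, fell from 2832, 2962 and 2769 to 478, 614 and 541 (log2 change -2.36 ± 0.20, adjusted p = 1.63e-06; probe set mean -1.47). It was the only call among 8 SMADs and partners, and all 5 of its probe sets were lower, from -2.36 to -0.56. FST, follistatin, which binds activin, rose from 345, 529.6 and 383 to 999.9, 1430 and 1261 (1.53 ± 0.28), and its 3 probe sets ran from 1.49 to 1.55. The ligand NODAL itself read 127, 92.2 and 116 in ES cells and 38.3, 47.9 and 47.4 at day 6 (-1.07 ± 0.48, adjusted p = 0.349), with the groups apart but no call. CER1, a Nodal antagonist, read 162, 160 and 107 in ES cells and 32.7, 26.7 and 50.7 at day 6 (-1.60 ± 0.62, adjusted p = 0.231). Among 8 ligands only INHBA, an activin chain, passed (-1.55 ± 0.40; probe set mean -0.63, no call), and lost its call without any 1 of the 6 arrays (adjusted p up to 0.183); its 3 probe sets ran from -1.55 to 0.67. FOXH1, a SMAD partner, did not pass (-0.82, adjusted p = 0.588). LTBP1, a binder of latent TGF-beta, was higher by 0.99, a call lost without ES pool 1 or 3 or any day 6 pool (adjusted p up to 0.239). TGFBR3, a coreceptor, was higher by 1.15, a call lost without ES pool 1 or 3 or any day 6 pool (adjusted p up to 0.178).

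BMP signals run through SMAD1, SMAD5 and SMAD9 to targets such as the ID genes. None of 13 measured ligands and none of 10 antagonists passed the test, against 3.85% of all genes. At that share lists this short may hold no call. With the block 2 antagonists passed. FST, which rose, was not in this list of antagonists but among the Nodal and activin inhibitors above. BMP4 read 119, 83.5 and 51.6 in ES cells and 131, 81.8 and 94.8 at day 6 (0.27 ± 0.55). The antagonist NOG, noggin, read 7.39, 10.98 and 35.96 in ES cells and 31.3, 45.01 and 73.8 at day 6 (0.99 ± 0.29, adjusted p = 0.0815, and 0.0173 with the block). Of the target genes, 7 of 13 rose (median 1.17), and 5 of these kept the call without any 1 array. ID2, an inhibitor of bHLH factors, rose from 751, 914 and 1147 to 2554, 2148 and 2942 (1.44 ± 0.26). MSX2, a homeobox factor of ectoderm and crest, rose from 16.8, 17.04 and 21.6 to 127, 95.03 and 85.6 (1.77 ± 0.24; probe set mean 0.76). DLX5, a homeobox factor of the border of the neural plate, rose from 12.2, 17.3 and 4.77 to 224, 219 and 226 (3.15 ± 0.44). HAND1, a bHLH factor of extraembryonic tissue, rose from 31.1, 18.9 and 26.8 to 179, 208 and 180 (2.31 ± 0.32). GATA3, a zinc finger factor of surface ectoderm and trophoblast, rose from 33.2, 64.9 and 60.8 to 409, 661 and 464 (2.94 ± 0.34). ID4 rose as well (1.15 ± 0.23; probe set mean 0.74), a call lost without ES pool 1 or day 6 pool 3 (adjusted p up to 0.0546). SMAD6, an inhibitory SMAD, was higher by 0.63 (probe set mean 0.15, no call), a call lost without any 1 of the 6 arrays (adjusted p up to 0.17). ID3 read 1142, 810.3 and 1612 in ES cells and 3448, 2042 and 2876 at day 6 and passed only with the block (adjusted p = 0.132, and 0.00412 with it). Several of these targets are also members of the ectoderm and amnion lists, so that the counts of the lists are not independent.

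Many LIM, PAX and eye field homeobox factors are known to specify the anterior neural plate. Of 39 such factors 11 rose and 0 fell (median 0.49); 8 of the 11 kept the call without any 1 array. PAX6, a paired-box factor needed for eye and forebrain, rose from 64.7, 45.1 and 29.9 to 881, 589 and 706 (log2 change 3.58 ± 0.26, adjusted p = 3.39e-07). LHX5, which marks the anterior neural plate, was at 6.18, 5.79 and 6.05 in the ES pools and at 166, 84.3 and 92.2 at day 6 (2.51 ± 0.41). SIX6, a relative of SIX3 in the eye and pituitary, rose from 2.96, 1.45 and 4.51 to 61.98, 34.9 and 53.2 (1.78 ± 0.35). PAX2, a factor of the optic stalk and of the midbrain and hindbrain border, rose from 1.77, 15.7 and 2.86 to 137, 56.1 and 95.9 (2.29 ± 0.39). ISL1, a LIM factor of placodes, motor neurons and amnion, rose from 23.2, 27.4 and 20.6 to 169, 303 and 202 (2.56 ± 0.38). PAX3, of the dorsal neural tube and crest, rose by 1.63 (probe set mean 0.67, no call), a call lost without day 6 pool 2 (adjusted p up to 0.0627). PAX7, its relative, rose by 1.35, a call lost without ES pool 3 or day 6 pool 3 (adjusted p up to 0.0904). EMX2, of the dorsal forebrain, rose by 1.59, a call lost without ES pool 1 or 2 or any day 6 pool (adjusted p up to 0.166). RAX, the retinal homeobox factor, read 2.12, 3.66 and 4.06 in ES cells and 69.3, 2.71 and 60.1 at day 6 and did not pass (adjusted p = 0.217): day 6 pool 2 was as low as the ES pools.

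Day 6 pool 2 was also the low one of HES5, a Notch target of neural progenitors, at 12.5, 17.7 and 11.5 in ES cells and 75.3, 4.76 and 72.1 at day 6 (no call, adjusted p = 0.78). That pool also had the highest 3' to 5' ratio of ACTB (2.64), whose part in these values was not tested. ZIC1, which acts in the dorsal neural plate, read 18.5, 8.84 and 16.1 in ES cells and 132, 46.7 and 98.1 at day 6 and passed only with the block (adjusted p = 0.0606, and 0.00226 with it). Iroquois, MEIS, DLX, MSX and NKX factors gave 8 increases among 37 (median 0.22), 7 of them kept without any 1 array. MEIS2, a partner of HOX and PAX factors, rose from 37.2, 75.1 and 73.7 to 464, 697 and 554 (2.94 ± 0.27), and MEIS1 by 1.50. IRX1 and IRX3, Iroquois factors of the neural plate, rose by 2.53 and 1.79, and DLX6, the neighbour of DLX5, by 1.40. SP8, a zinc finger factor of the anterior neural ridge, rose from 59.2, 71.2 and 31.4 to 455, 511 and 608 (2.99 ± 0.23; probe set mean 1.69), although its 2 probe sets ran from 0.39 to 2.99. None of 25 measured HOX genes, which pattern the body behind the forebrain, passed the test (1 was lower with the block), against 3.85% of all genes. At that share a list of 25 may hold no call. The highest mean among them at day 6 was that of HOXB2, at 4.73, 7.88 and 55.99 in ES cells and 70.1, 110.4 and 85.4 at day 6 (adjusted p = 0.145).

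Of 19 SOX factors 6 rose and 0 fell. SOX11, a factor of neural precursors, had the most signal among them and rose from 734, 1238 and 559.5 to 3196, 3442 and 3315 (log2 change 2.03 ± 0.23, adjusted p = 4.49e-05). SOX5 and SOX9, factors of neural progenitors, crest and cartilage, rose by 2.20 (probe set mean 0.80) and 1.78. SOX1, an early marker of neuroectoderm, was still low, at 3.19, 21.96 and 10.2 in ES cells and 57.7, 61.5 and 49.5 at day 6 (1.43 ± 0.31; probe set mean 0.40, no call). Its call was lost without ES pool 1 or day 6 pool 1 or 2 (adjusted p up to 0.0782). SOX21 (1.25) lost its call without ES pool 1 or 2 or any day 6 pool (adjusted p up to 0.167), and SOX10, of neural crest (1.48; probe set mean 0.82), lost it without ES pool 1 or 3 or any day 6 pool (adjusted p up to 0.178). ZEB2, a repressor that favours neural over mesendodermal fate, rose from 10.1, 10.6 and 17.1 to 159, 178 and 197 (2.77 ± 0.29; probe set mean 1.54), although its 5 probe sets ran from -0.07 to 2.77. GLIS3, a Krüppel-like zinc finger factor, rose by 1.70. FOXO1, a forkhead factor held in check by insulin signalling, fell from 730.5, 774 and 639 to 303, 336 and 242 (-1.25 ± 0.19).

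Markers of radial glia and neural progenitors gave 7 increases among 24 (median 0.81; with the block 11 rose and 1 fell), and all 7 kept the call without any 1 array. FABP7, which binds fatty acids in radial glia, rose from 90.3, 87.8 and 138 to 722, 719 and 866 (2.71 ± 0.26; probe set mean 1.61), although its 3 probe sets ran from -0.20 to 2.71. DACH1, a nuclear cofactor of the eye field, rose from 40.8, 23.2 and 24.5 to 341, 278 and 258 (2.77 ± 0.23). NES, nestin, read 1189, 567 and 388 in ES cells and 1907, 711 and 996 at day 6 (no call, adjusted p = 0.618) and VIM, vimentin, 4202, 3584 and 5631 in ES cells and 3046, 2291 and 3130 at day 6 (adjusted p = 0.358). The neuronal list was divided, with 5 of 37 members higher and 4 lower (7 and 7 with the block). MAP2, a microtubule protein of dendrites, rose from 31.6, 66.6 and 27.7 to 577, 475 and 532 (3.29 ± 0.30), and the adhesion molecules NRCAM and NCAM1 rose by 2.29 and 2.21 (probe set mean 0.62, no call), although for NCAM1 its 7 probe sets ran from -0.18 to 2.21. DCX, of migrating neurons, rose by 1.19, a call lost without ES pool 1 or 2 or day 6 pool 1 or 2 (adjusted p up to 0.0844). CNTN1, contactin, fell from 229, 290.5 and 207 to 82.4, 86.2 and 80.03 (-1.37 ± 0.23). ELAVL2, a neuronal RNA-binding protein already present in ES cells, was lower (-0.98), a call lost without ES pool 2 or 3 or day 6 pool 1 (adjusted p up to 0.116).

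Some genes of non-neural ectoderm, neural crest and amnion also passed the test. TFAP2A, a factor of surface ectoderm and crest, rose from 21.6, 59.1 and 24.1 to 720.1, 702 and 589 (log2 change 3.82 ± 0.40, adjusted p = 1.68e-05; probe set mean 1.93), although its 3 probe sets ran from 0.41 to 3.82. Its relative TFAP2B rose from 8.03, 11.02 and 7.33 to 169, 248 and 292 (3.32 ± 0.47). GRHL3, a factor of surface ectoderm, rose by 1.62. Of the placode list, 10 of 31 members rose (median 0.55), 9 of which kept the call without any 1 array; EYA1, a transcription cofactor and phosphatase, rose from 8.78, 4.24 and 3.54 to 60.4, 57.1 and 58.6 (1.80 ± 0.30; probe set mean 0.93, no call). SNAI2, of neural crest, rose from 4.29, 35.3 and 62.8 to 139.9, 261 and 187 (2.25 ± 0.37), and CLDN4, a claudin of epithelia, by 1.71 (probe set mean 0.88). Of the amnion and trophoblast list, 8 of 30 members rose (median 0.30), and all 8 kept the call without any 1 array. GABRP, a GABA receptor subunit of amnion and other epithelia, rose from 4.85, 2.69 and 16.8 to 147, 263 and 146 (3.06 ± 0.44), and VTCN1, a membrane protein of the B7 family, from 1.13, 17.1 and 21.6 to 84.97, 139.9 and 124 (2.23 ± 0.36). VGLL1, a TEAD cofactor of trophoblast, rose by 1.96 (probe set mean 0.46, no call), although its 3 probe sets ran from -0.59 to 1.96. Other markers of trophoblast were low at both times and did not pass: the mean signal in ES cells and at day 6 was 13.4 and 2.63 for CDX2, 14.4 and 2.34 for GCM1, and 10.4 and 12.6 for ELF5.

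The summed signal of the 11 measured trophoblast and amnion markers was 689 to 887 in the ES pools and 2070 to 2567 at day 6. A large part of this rise came from IGFBP3, a binder of insulin-like growth factors whose signals are given below. The summed signal of the 12 neuroectoderm markers was 9238 to 10840 and 18270 to 21670, with 7 of 12 higher and 0 lower. Most of this sum in both groups came from SOX2 and OTX2, which ES cells also express and which did not pass the test. The sum therefore does not follow the called genes alone. Of 9 ES cell markers 3 fell (NANOG, DPPA4 and PODXL), and their summed signal was 43660 to 49100 in the ES pools and 33640 to 34010 at day 6. Which cells of the aggregates carried each set cannot be read from pooled RNA. Of 9 neural crest markers 5 were higher (SOX10, TFAP2B, SNAI2, PAX3 and SOX9) and 2 lower (FOXD3 and ETS1), SOX10, PAX3, FOXD3 and ETS1 with calls that did not hold without every array. Of 10 surface ectoderm and placode markers 3 rose (TFAP2A, DLX5 and GATA3). The keratin KRT18 read 2421, 1588 and 3874 in ES cells and 3223, 2672 and 3368 at day 6 and EPCAM, an epithelial adhesion molecule, 4874, 5111 and 6094 in ES cells and 3157, 3701 and 4033 at day 6, neither passing. None of 7 mesendoderm markers passed. At the 3.85% of all genes that passed, marker lists this short, here and below, may hold no call. TBXT, the brachyury gene, had mean signals of 35.4 in ES cells and 83.6 at day 6, EOMES 30.9 and 76.1, and MIXL1 3.98 and 12.3. The summed signal of all 7 mesendoderm markers was 220.5 to 289.5 in the ES pools and 237 to 263 at day 6. It joins a lower mean of CER1 at day 6 with higher means of TBXT, EOMES and MIXL1. None of 8 endoderm markers passed (1 with the block), the means being 20.2 and 29.1 for SOX17, 4.20 and 10.9 for FOXA2, and 80.6 and 48.3 for AFP. None of 4 germ cell markers passed. Of 10 neuron markers only DCX passed, and of 9 markers of endothelium and blood only KDR, which was lower (-1.25), a call lost without ES pool 1 or 2 or day 6 pool 1 or 3 (adjusted p up to 0.121).

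**Figure D4:**
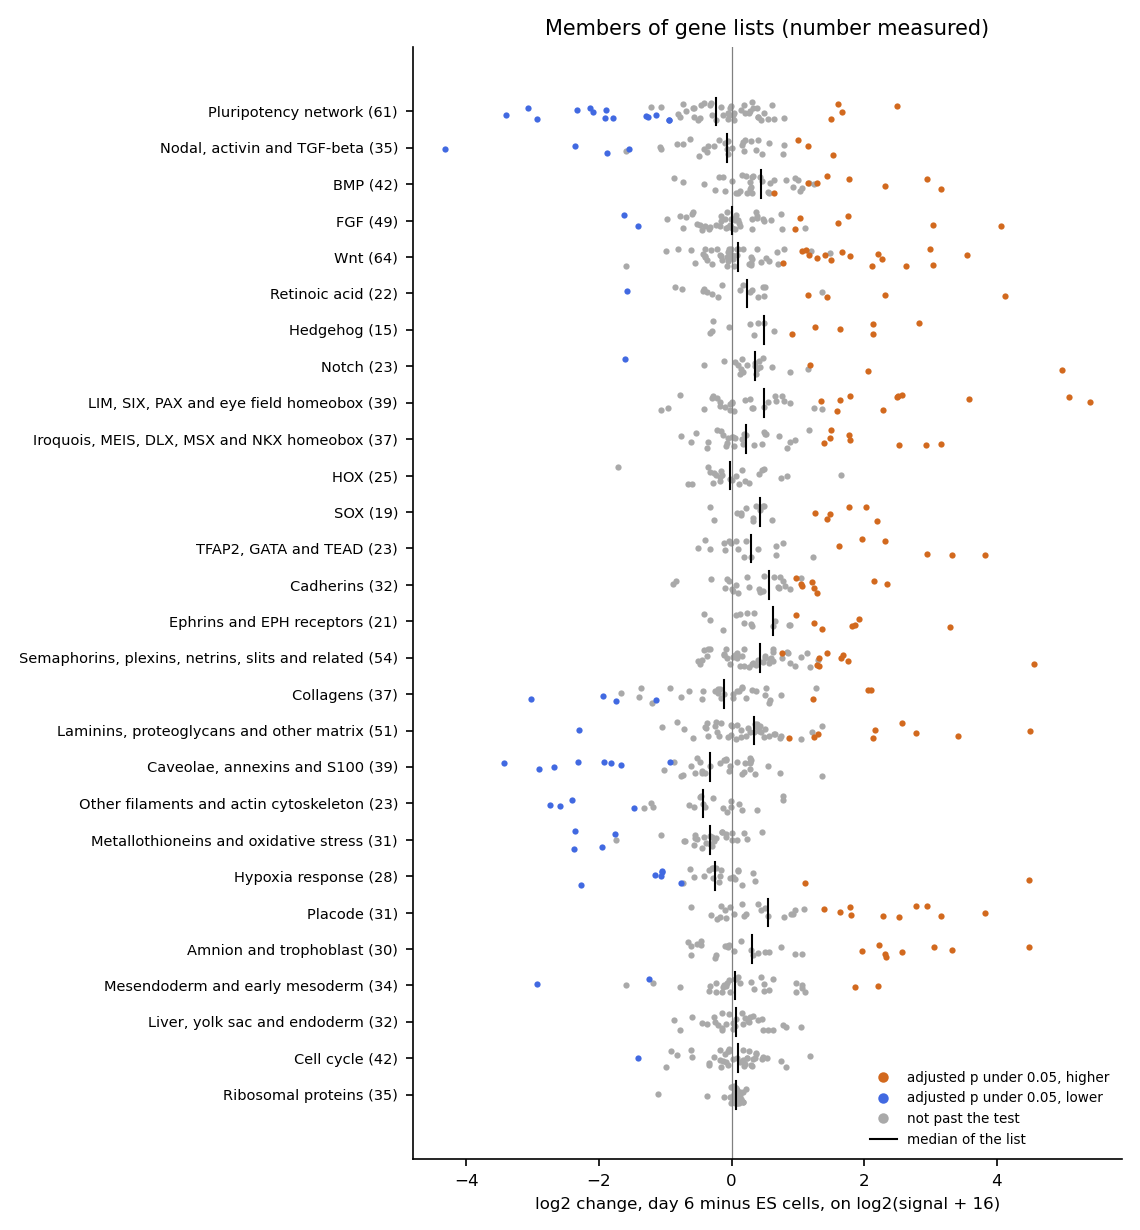
Log2 change from ES cells to day 6 (x axis) of every measured member of 28 gene lists (rows, number measured in brackets), orange where higher and blue where lower at an adjusted p under 0.05, grey otherwise, with a black bar at each list's median; vertical scatter within a row has no meaning. The called homeobox, SOX, Hedgehog, cadherin and ephrin genes all lie to the right, those of the caveolae, actin and metallothionein lists all to the left, and ribosomal proteins, HOX and liver genes have no call.

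Wnt proteins bind Frizzled receptors and act through beta-catenin and LEF1 or by other routes. None of 17 ligand genes passed the test (1 with the block), against 3.85% of all genes. At that share a list of 17 may hold no call. WNT5A, the ligand with the most signal, read 41.3, 142 and 102 in ES cells and 93.6, 120.5 and 115 at day 6 (0.29 ± 0.30). Receptors rose in 7 of 16 cases, 3 of which kept the call without any 1 array. FZD5, a receptor of the eye field, rose from 2419, 2860 and 1691 to 5572, 4931 and 6375 (1.29 ± 0.21). FZD3 rose by 1.41, and FZD1 by 1.17 (probe set mean 0.37, no call), although for FZD1 its 3 probe sets ran from -0.21 to 1.17. FZD2 rose by 2.11, a call lost without ES pool 2 or day 6 pool 1 or 3 (adjusted p up to 0.0779). WLS, the carrier that brings Wnt proteins to the cell surface, is in none of the lists and was picked after its values were seen; it rose from 30.5, 63.4 and 52.4 to 376, 495 and 422 (2.81 ± 0.30). Secreted antagonists rose in 5 of 16 cases (with the block 7 rose and 1 fell). FRZB, a Frizzled-related protein, rose from 150.1, 217 and 197 to 2578, 1781 and 2820 (log2 change 3.55 ± 0.26, adjusted p = 4.12e-07). DKK1, which blocks the LRP coreceptors, rose from 20.1, 50.8 and 43.7 to 114, 221 and 176 (1.79 ± 0.33). SHISA2, which holds Frizzled and FGF receptors inside the cell, rose from 515, 560.4 and 616 to 4692, 4660 and 4767 (3.03 ± 0.28). Of the nuclear and target genes, LEF1 rose by 2.27 (probe set mean 1.20), SP5 by 2.21 and RSPO3, a secreted amplifier of Wnt signals, by 2.63, while AXIN2, a general target, read 329.8, 294 and 244 in ES cells and 221, 293 and 342 at day 6 (-0.03 ± 0.22).

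Of the FGF pathway, 1 of 22 ligands and 2 of 10 receptors and partners passed the test, all higher at day 6. Of 17 targets and inhibitors 3 were higher and 2 lower. Over all genes 3.85% passed. FGF2 read 802, 1005 and 689.5 in ES cells and 441, 605 and 394 at day 6 (-0.78 ± 0.25, adjusted p = 0.117, and 0.0156 with the block). The 1 ligand that passed, FGF9, read 6.22, 16.8 and 26.1 in ES cells and 85.7, 80.3 and 72.9 at day 6 (1.61 ± 0.24; probe set mean 0.99). DUSP4, a phosphatase that restrains ERK, rose from 48.4, 91.04 and 70.9 to 245, 272 and 293 (1.76 ± 0.24). Its relative DUSP6 did not pass, with 260.5, 284 and 368 in ES cells and 307, 244 and 456 at day 6. SPRY1, an inhibitor induced by FGF, did not pass either, with 269, 279 and 358 in ES cells and 273, 216 and 325 at day 6. MYC, a growth factor-induced transcription factor, fell from 824, 543 and 749.7 to 289, 218 and 251 (-1.41 ± 0.20). EGR1, an immediate early gene, read 729, 689.7 and 823 in ES cells and 179, 249.5 and 278 at day 6 (-1.62 ± 0.43), but its call was lost without any 1 of the 6 arrays (adjusted p up to 0.184).

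Retinoic acid is made by aldehyde dehydrogenases and broken down by CYP26 enzymes. ALDH1A2, the main embryonic enzyme, was at 2.29, 2.14 and 2.52 in the ES pools and 425, 185 and 351 at day 6 (log2 change 4.12 ± 0.30, adjusted p = 4.31e-07; probe set mean 2.70). In the untreated neuroepithelial cells its mean was 22.4 ± 15.5 at day 10 and 9.13 ± 5.98 at day 17 (SD, n = 3), against 321 ± 123 at day 6; the days after 6 were not tested here. ALDH1A3, another such enzyme, fell from 161, 108 and 77.4 to 24.8, 33.3 and 22.8 (-1.57 ± 0.31; probe set mean -0.84, no call). CYP26A1 was high in both groups, at 2265, 2707 and 3417 in ES cells and 3954, 3473 and 4065 at day 6 (0.47 ± 0.21, no call). NR2F1, an orphan receptor of neural tissue, rose from 29.5, 18.6 and 2.22 to 79.8, 199.7 and 156 (2.32 ± 0.37), and NR6A1, an orphan receptor that silences pluripotency genes, from 414, 616 and 616 to 1106, 1665 and 1810 (1.44 ± 0.23).

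In the Hedgehog list 6 of 15 genes rose and 0 fell (median 0.49). They were cell surface binders, receptors and an effector. GAS1, a coreceptor, rose from 152, 242 and 261 to 1459, 1583 and 1798 (2.83 ± 0.26; probe set mean 1.37, no call), although its 3 probe sets ran from 0.16 to 2.83. BOC, another coreceptor, rose by 2.13 (probe set mean 1.29), and GPC3, a glypican that binds Hedgehog, from 836, 816 and 661 to 3676, 2992 and 3678 (2.14 ± 0.30). The receptor PTCH1 rose by 1.25 (probe set mean 0.41, no call), although its 5 probe sets ran from -0.17 to 1.25. GLI3, which acts mainly as a repressor, rose from 252, 213 and 160.3 to 636, 767 and 626 (1.64 ± 0.21). SMO rose by 0.90, a call lost without ES pool 2 or 3 or day 6 pool 1 (adjusted p up to 0.108). LRP2, an endocytic receptor for sonic hedgehog picked in the same way, rose from 21.7, 33.1 and 36.8 to 158, 182 and 238 (2.16 ± 0.21). The ligand SHH read 4.06, 51.6 and 51.9 in ES cells and 26.3, 41.7 and 4.41 at day 6 and GLI1, a direct target, 143, 98.8 and 90.5 in ES cells and 109.6, 76.4 and 69.4 at day 6, neither passing. Of the Notch list, DLL1, a ligand, rose from 62.0, 69.5 and 53.6 to 351, 285 and 286 (2.06 ± 0.37; probe set mean 1.35). Of the Notch effectors, HEY1 was higher (1.18), a call lost without ES pool 1 or day 6 pool 2 (adjusted p up to 0.0579). HEY2 was lower (-1.60), a call lost without any 1 of the 6 arrays (adjusted p up to 0.127).

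Cadherins, ephrins and guidance genes that passed the test were all higher at day 6. Of 32 cadherins and catenins, 8 rose and 0 fell (median 0.56; with the block 13 rose and 1 fell), and 4 kept the call without any 1 array. CDH2, the N-cadherin of neural tissue, rose from 688, 658 and 565 to 1638, 1462 and 1631 (log2 change 1.29 ± 0.16, adjusted p = 0.00012). CDH1, the E-cadherin of ES cells and epithelia, read 4157, 4837 and 3050 in ES cells and 3475, 4440 and 3687 at day 6 (-0.04 ± 0.31, 95% interval -0.70 to 0.63). CDH6, of the neural plate border, rose from 135, 175 and 81.9 to 694, 773 and 650.4 (2.35 ± 0.25), PCDH17, a protocadherin, by 2.15, and CTNNA2, a neural alpha-catenin, by 1.21. Ephrins and their receptors, which sort cells at boundaries, gave 7 increases among 21 (median 0.62), 5 of them kept. EPHA4 rose from 147, 266 and 121 to 1968, 1519 and 1919 (3.29 ± 0.23), although its 5 probe sets ran from 0.12 to 3.58. EFNB2 rose from 346, 387 and 263 to 1277, 1118 and 1331 (1.87 ± 0.20), and its 2 probe sets ran from 1.80 to 1.87. EPHA7, EFNA5 and EPHB1 rose by 1.93 (probe set mean 1.20, no call), 1.82 (probe set mean 1.06) and 1.25 (probe set mean 0.72). Of 54 other guidance genes 9 rose and 0 fell (15 with the block), 6 of them kept, among them the receptors PLXNC1 (1.76; probe set mean 0.96, no call), UNC5C (1.68; probe set mean 0.52, no call), ROBO2 (1.44) and NRP2 (1.32; probe set mean 0.54, no call). CADM1, a synaptic adhesion molecule also picked after its values were seen, rose from 229, 323 and 306 to 1373, 1581 and 1537 (2.34 ± 0.21; probe set mean 1.38). No keratin (20 measured), integrin (20) or gap junction gene (12) passed the test. At the 3.85% of all genes that passed, lists of this size may hold no call. With the block 2 keratins and 1 gap junction gene were higher and 1 integrin lower.

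Matrix genes moved both ways. HAPLN1, which links hyaluronan to proteoglycans, rose from 23.6, 56.01 and 30.9 to 761, 1891 and 1020 (log2 change 4.50 ± 0.46, adjusted p = 1.48e-05). SPON1, a spondin of the floor plate, rose by 2.77 (probe set mean 1.68), FBN2, a fibrillin of the embryo, from 348, 387 and 142 to 1520, 1961 and 1594 (2.57 ± 0.29; probe set mean 1.12), and TNC, tenascin, by 2.17 (probe set mean 0.82, no call), although for TNC its 3 probe sets ran from -0.11 to 2.17. LUM, the keratan sulphate proteoglycan lumican, rose from 0.631, 7.08 and 14.3 to 177, 324 and 196 (3.41 ± 0.63; probe set mean 1.83, no call). HAS2, which makes hyaluronan, rose from 71.1, 61.4 and 81.5 to 346, 319.9 and 241 (1.86 ± 0.30). In that list 9 of 51 rose and 1 fell (13 and 2 with the block). Among 37 collagens 3 rose and 4 fell (4 and 7 with the block). COL1A1 and COL1A2, the chains of type I collagen, fell, COL1A1 from 1924, 3575 and 3099 to 329, 292 and 362 (log2 change -3.03 ± 0.27, adjusted p = 4.08e-06; probe set mean -1.52) and COL1A2 from 641, 993 and 841 to 339, 358 and 385 (-1.14 ± 0.20). COL5A2, a fibril chain (-1.74), and COL8A1 (-1.94; probe set mean -0.57, no call; its 3 probe sets ran from -1.94 to 0.26) fell too. COL2A1, a fibril chain of cartilage and notochord, rose from 44.9, 41.8 and 49.1 to 235, 241 and 237 (2.05 ± 0.37), and COL4A6, of basement membrane, from 342, 282 and 134 to 1245, 972 and 1011 (2.11 ± 0.37). COL3A1 was unequal among the ES pools, at 15.1, 192 and 189 in ES cells and 90.4, 142 and 67.5 at day 6 (0.03 ± 0.60, no call).

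MMP1, a collagenase, differed widely among the ES pools: it read 1.69, 1043 and 1093 in ES cells and 3.35, 1.31 and 7.55 at day 6, so that ES pool 1 was as low as the day 6 pools. It did not pass the test (log2 change -3.79 ± 1.04, adjusted p = 0.0557) and did so with the block (adjusted p = 0.044). ES pool 1 was also the lowest ES pool of COL3A1 and SHH; the part of its extraction or passages in these values was not tested.

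Caveolae, annexin and S100 genes, which act at the membrane and cytoskeleton of adherent cells, gave 8 decreases and 0 increases among 39 (median -0.33; 10 and 2 with the block), 5 of them kept without any 1 array. CAV1, the coat protein of caveolae, fell from 854, 808 and 864 to 58.5, 54.7 and 80.3 (log2 change -3.43 ± 0.20, adjusted p = 4.94e-08) and CAV2, its partner, from 198, 189.8 and 138 to 12.6, 14.9 and 12.9 (-2.69 ± 0.24; probe set mean -1.75). The ES pools agreed closely for both. S100A6 fell from 425, 321 and 1053 to 98.4, 35.7 and 47.7 (-2.91 ± 0.48; probe set mean -1.65) and S100A10 from 2245, 1620 and 2937 to 657, 445 and 626 (-1.93 ± 0.25; probe set mean -1.09), ES pool 3 being the highest for both. ANXA1 fell (-1.82; probe set mean -0.85, no call), although its 2 probe sets ran from -1.82 to 0.13. LGALS1, the lectin galectin 1, fell from 1027, 1576 and 2950 to 395, 213 and 409 (-2.31 ± 0.49), a call lost without ES pool 3 or day 6 pool 2 (adjusted p up to 0.0658). CCN2 and CCN1, matrix proteins that YAP and serum response factor (SRF) induce, both fell. CCN2 went from 1199, 1174 and 1114 to 208, 280.2 and 214 (-2.25 ± 0.24) and CCN1 from 869, 1007 and 806 to 192, 360.1 and 279 (-1.67 ± 0.29). THBS1, thrombospondin, fell from 333, 487 and 504 to 68.2, 97.1 and 63.99 (-2.30 ± 0.35; probe set mean -0.70, no call), although its 7 probe sets ran from -2.30 to 0.51. PLAU, the urokinase, and SERPINB9, a granzyme inhibitor, fell (-1.42 and -1.69).

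Of 23 genes of actin and other filaments 4 fell and 0 rose (7 and 0 with the block). ACTA1, skeletal muscle actin, fell from 1570, 737 and 1320 to 222, 150.3 and 119 (log2 change -2.74 ± 0.36, adjusted p = 0.00022), and ACTG2, a smooth muscle actin, from 546, 367 and 519 to 69.95, 58.1 and 66.7 (-2.59 ± 0.23; probe set mean -1.33). TAGLN, the actin binder transgelin, fell from 2337, 868 and 2027 to 390.3, 205 and 304 (-2.40 ± 0.62; probe set mean -1.49, no call), a call lost without ES pool 1 or 3 or any day 6 pool (adjusted p up to 0.161). MYL7, a myosin light chain, fell (-1.48), a call lost without day 6 pool 2 (adjusted p up to 0.0536). The myogenic factors MYOD1 and MYOG were low in both groups, with means of 6.00 in ES cells and 2.86 at day 6 for MYOD1, and 5.35 and 3.40 for MYOG. The sequences just before the starts of these genes are shown because muscle and cytoskeletal actin genes are known to carry CArG boxes, the site that SRF binds. Of the 4 members that fell, 3 are in the RefSeq promoter table used (GRCh38.p14), and each has at least 1 CArG box in the 250 bases before its start on either strand, as do 1.14% of the 27303 promoters of the table. The 4 were chosen because they fell, so that this is a description. Members of the list that did not fall were not read separately. CArG boxes are in capitals in the sequences, which run 5' to 3' on the gene's own strand and end at the base before the start; ACTA1 lies at chr1:229434095-229434344 on the minus strand, ACTG2 at chr2:73892758-73893007 on the plus strand and MYL7 at chr7:44141333-44141582 on the minus strand.
ACTA1: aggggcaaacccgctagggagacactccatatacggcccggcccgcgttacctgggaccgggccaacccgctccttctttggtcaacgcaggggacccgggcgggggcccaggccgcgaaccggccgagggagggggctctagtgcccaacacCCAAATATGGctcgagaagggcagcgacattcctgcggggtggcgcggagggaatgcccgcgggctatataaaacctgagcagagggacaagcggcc
ACTG2: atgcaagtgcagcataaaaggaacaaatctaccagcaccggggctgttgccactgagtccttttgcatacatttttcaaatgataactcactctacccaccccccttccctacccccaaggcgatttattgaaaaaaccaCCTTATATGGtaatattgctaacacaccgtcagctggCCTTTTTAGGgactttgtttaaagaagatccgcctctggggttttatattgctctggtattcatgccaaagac
MYL7: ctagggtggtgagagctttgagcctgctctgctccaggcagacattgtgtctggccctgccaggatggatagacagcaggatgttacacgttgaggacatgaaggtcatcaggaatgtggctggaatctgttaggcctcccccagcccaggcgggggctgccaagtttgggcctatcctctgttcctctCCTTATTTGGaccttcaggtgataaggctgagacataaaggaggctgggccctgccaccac

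**Figure D5:**
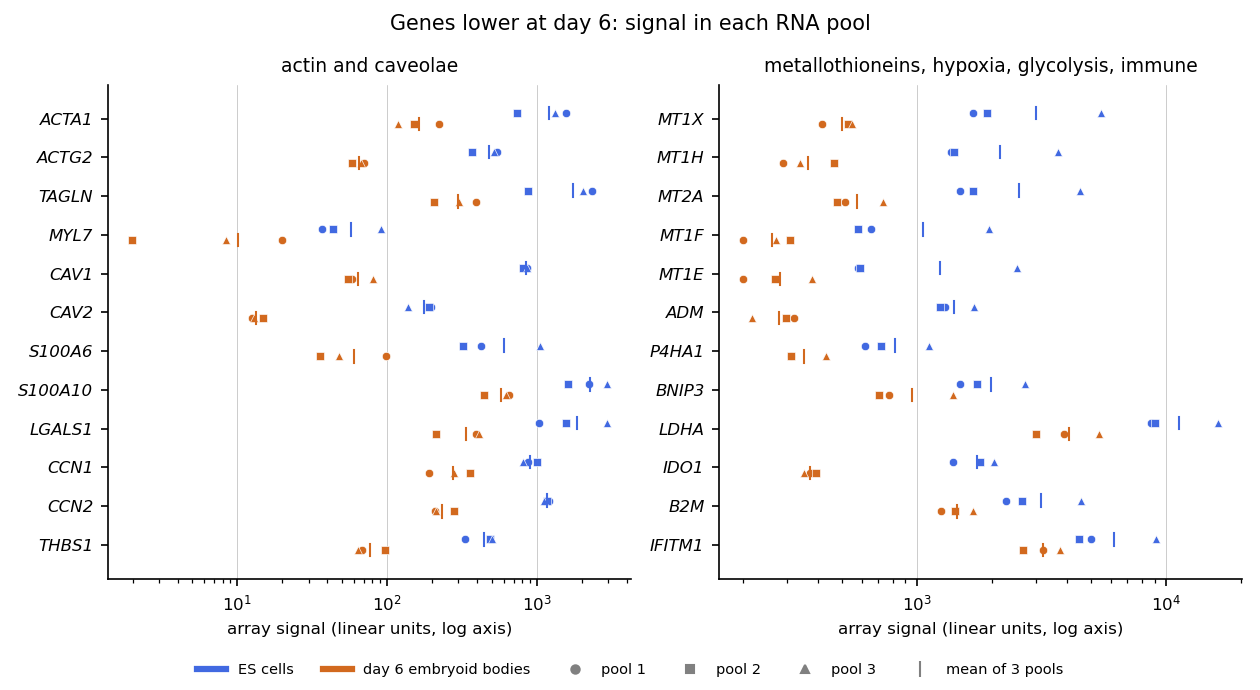
Array signal (x axis, log scale) of 12 genes of actin, caveolae and related functions and 12 of metallothioneins, hypoxia, glycolysis and immunity, by pool (circle, square and triangle for pools 1, 2 and 3) in ES cells (blue) and day 6 embryoid bodies (orange), with a bar at each mean. MT1E and IFITM1 did not pass the test. In the left panel the ES pools of CAV1 and CCN2 lie close together, and in the right panel ES pool 3 stands above the other ES pools for the 5 metallothioneins, as for MT1X at 5472 against 1678 and 1911.

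Some of the genes that fell are also markers of fibroblasts, cells on which ES cells may be grown; the labels do not say whether feeder cells were used. The summed signal of 15 fibroblast markers was 10810 to 13610 in the ES pools and 4413 to 5416 at day 6. In every pool the largest part of it came from VIM, given above beside the radial glia markers, which did not pass the test. The sum therefore does not follow the called markers alone. Of the 15 markers 4 fell, COL1A1, COL1A2, CAV1 and TAGLN, and 1, LUM, rose. Among the others, which did not pass, DCN, decorin, had a mean signal of 24.8 in the ES pools and 37.8 at day 6, POSTN, periostin, 51.3 and 19.3, and FAP 19.4 and 11.2. In the same order PDGFRB read 30.4 and 27.6, PDGFRA 84.8 and 138, THY1 358 and 214, S100A4 209.8 and 231, and ACTA2 129 and 148. The part of such cells in the decreases was not tested.

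Metallothioneins are small proteins that bind zinc and copper and are known to rise with metal or oxidative load. Of this family MT1X, MT1H, MT2A and MT1F fell. MT1X read 1678, 1911 and 5472 in ES cells and 418, 528 and 551 at day 6 (log2 change -2.36 ± 0.37, adjusted p = 0.000966). MT1H read 1365, 1403 and 3697 in ES cells and 291, 464 and 339 at day 6 (-2.37 ± 0.43). The signal of MT2A was 1493, 1685 and 4500 in ES cells and 515, 479 and 734 at day 6 (-1.96 ± 0.43), and that of MT1F 656, 578 and 1940 in ES cells and 200.2, 311 and 273 at day 6 (-1.75 ± 0.40). In each, ES pool 3 stood well above the other ES pools, and the day 6 pools were below all 3. The calls of MT1X and MT1H were kept without any 1 array. That of MT2A was lost without ES pool 3 or day 6 pool 1 or 2 (adjusted p up to 0.0746), and that of MT1F without ES pool 3 or day 6 pool 1 or 3 (adjusted p up to 0.0959). MT1E read 581, 593 and 2529 in ES cells and 201, 269.9 and 378 at day 6 and passed only with the block (adjusted p = 0.0745, and 0.00366 with it). Metallothionein genes are near-identical in parts, and a probe set may read more than its own. These 4 were all the decreases among 31 genes of metallothioneins and oxidative stress (8 with the block). Metallothionein promoters are known for the metal response element, through which the zinc sensor MTF1 acts, and those of MT1X and MT2A are shown for it. MT1F is not in the promoter table, and the 4 were chosen because they fell, so that this is a description. List members that did not fall were not read separately for the element. Its core was searched as TGCACNC or TGCGCNC on both strands. In the 250 bases before the start, MT1X (chr16:56682220-56682469, plus strand) has 4 stretches, MT2A (chr16:56608334-56608583, plus strand) 7 and MT1H 8. In all 27303 promoters, 24.7% have at least 1 core and 5.61% at least 2. Among the promoters of genes tested here 29.7% have at least 1. Cores are in capitals.
MT1X: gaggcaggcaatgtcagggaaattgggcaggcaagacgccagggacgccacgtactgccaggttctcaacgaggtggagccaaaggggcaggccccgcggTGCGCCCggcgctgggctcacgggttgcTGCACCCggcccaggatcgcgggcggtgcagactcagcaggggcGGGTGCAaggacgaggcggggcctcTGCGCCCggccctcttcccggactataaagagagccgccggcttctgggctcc
MT2A: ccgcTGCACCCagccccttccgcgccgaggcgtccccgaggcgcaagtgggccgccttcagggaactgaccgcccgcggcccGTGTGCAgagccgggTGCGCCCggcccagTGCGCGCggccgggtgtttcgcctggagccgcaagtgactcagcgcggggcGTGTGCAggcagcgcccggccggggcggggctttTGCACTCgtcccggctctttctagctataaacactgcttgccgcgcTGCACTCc

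Of 28 genes known to respond to low oxygen 6 fell and 2 rose, of which 3 and 1 kept the call without any 1 array. ADM, adrenomedullin, fell from 1296, 1244 and 1693 to 322, 299 and 218 (log2 change -2.27 ± 0.22, adjusted p = 7.64e-06). P4HA1 and P4HA2, the prolyl hydroxylases of collagen, fell, P4HA1 by a log2 change of -1.15 (probe set mean -0.70, no call) and P4HA2 of -1.04 (probe set mean -0.31, no call). STC1, stanniocalcin, was lower (-1.07), a call lost without ES pool 2 or day 6 pool 1 or 3 (adjusted p up to 0.0889). BNIP3, a mitophagy receptor, was lower (-1.05), a call lost without ES pool 2 or 3 or day 6 pool 1 or 2 (adjusted p up to 0.238). VEGFA, a vascular growth factor, was lower (-0.76; probe set mean -0.48, no call), a call lost without any 1 of the 6 arrays (adjusted p up to 0.15). LDHA, lactate dehydrogenase, was the 1 call among 19 glycolysis genes (3 with the block), where 3.85% of all genes passed. It read 8723, 9037 and 16196 in ES cells and 3884, 2995 and 5381 at day 6 (-1.45 ± 0.29). This decrease lost its call without day 6 pool 2 (adjusted p up to 0.0523). HIF1A, the oxygen-labile subunit itself, read 4544, 5616 and 4257 in ES cells and 4597, 5153 and 5086 at day 6 (0.05 ± 0.20). EPAS1, which encodes HIF2 alpha, rose from 26.6, 40.9 and 34.5 to 950.4, 1304 and 1045 (log2 change 4.48 ± 0.35, adjusted p = 9.94e-07; probe set mean 1.76), although its 3 probe sets ran from -0.00 to 4.48. SLC2A1, the glucose transporter, read 315, 357 and 470.3 in ES cells and 460.1, 282 and 266 at day 6 (-0.20 ± 0.32, no call), and PGK1 6623, 6246 and 12875 in ES cells and 5322, 4292 and 6286 at day 6 (-0.63 ± 0.31). In LDHA, PGK1 and BNIP3, as in the metallothioneins, ES pool 3 was the highest ES pool.

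The hypoxia response core, ACGTG, to which HIF binds, was searched on both strands in the 250 bases before the start. It lies there in 3 of the 5 decreasing hypoxia and glycolysis genes found in the promoter table (BNIP3, P4HA1 and LDHA, not ADM and P4HA2). It also lies in 18.7% of all 27303 promoters and in 21.2% of those of genes tested here. The 7 genes were chosen because they fell, so that this too is a description, and list members that did not fall were not read separately. LDHA (chr11:18394313-18394562, plus strand) is shown because it has 3 stretches, in capitals, and 2.69% of all promoters have 2 or more.
LDHA: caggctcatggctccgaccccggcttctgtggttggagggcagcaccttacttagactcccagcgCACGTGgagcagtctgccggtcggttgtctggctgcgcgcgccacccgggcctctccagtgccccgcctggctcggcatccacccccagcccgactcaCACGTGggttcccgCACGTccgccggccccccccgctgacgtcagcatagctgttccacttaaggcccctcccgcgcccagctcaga

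Immune genes gave 6 decreases and 2 increases among 40. IDO1, which breaks down tryptophan, fell from 1401, 1795 and 2048 to 372, 394 and 352 (-2.17 ± 0.35), and the chemokine CXCL6 from 163, 171 and 184 to 37.2, 39.5 and 56.3 (-1.66 ± 0.25). B2M, the light chain of MHC class I, read 2275, 2630 and 4547 in ES cells and 1250, 1419 and 1679 at day 6 (-1.05 ± 0.28; probe set mean -0.60, no call), a call lost without ES pool 2 or 3 or any day 6 pool (adjusted p up to 0.224). For B2M its 3 probe sets ran from -1.28 to 0.53. IFI16, a DNA sensor, rose by 1.43, and CXCL14, a chemokine of epithelia, by 1.96 (probe set mean 1.02, no call). Receptors and ligands of growth factors fell in 6 of 34 cases and rose in 1. FLT1, a VEGF receptor, fell from 577, 630.2 and 398 to 102, 144 and 77.5 (-2.16 ± 0.39; probe set mean -1.26; its 6 probe sets ran from -2.38 to -0.04), and KITLG, the KIT ligand, fell (-1.17; probe set mean -0.56, no call; its 4 probe sets ran from -1.17 to -0.01). NRG1, neuregulin, rose by 1.39 (probe set mean 0.69). IGFBP3, which binds insulin-like growth factors, rose from 160.5, 145 and 218 to 986, 963 and 842 (2.33 ± 0.27).

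Chromatin, growth and imprinted genes are set here beside the 3.85% of all genes that passed the test. Of 33 Polycomb, trithorax and remodelling genes 2 rose and 3 fell, and only SIRT1, a deacetylase, kept its call without any 1 array, falling from 1641, 2099 and 1880 to 842, 1087 and 892 (-0.98 ± 0.19). EZH2, the Polycomb methyltransferase, read 497, 592 and 384 in ES cells and 951, 962 and 872 at day 6 (0.92 ± 0.24), a call lost without ES pool 1 or 3 or any day 6 pool (adjusted p up to 0.193). UHRF1, which guides maintenance methylation, rose by 1.08, a call lost without ES pool 2 or 3 or any day 6 pool (adjusted p up to 0.101). Of 42 cell cycle genes only MYC passed, against 3 higher and 2 lower with the block; PCNA, the replication clamp, read 4079, 3754 and 4537 in ES cells and 3994, 3804 and 4773 at day 6 (0.02 ± 0.17). None of 35 ribosomal protein genes passed (median 0.06). Imprinted genes rose in 4 of 28 cases and fell in 1 (8 and 2 with the block). Beside DLK1 and DLX5, PEG10, a gene of retrotransposon origin, rose from 984, 864 and 565 to 2176, 1744 and 2114 (1.34 ± 0.23). MEST rose by 0.96, a call lost without any 1 of the 6 arrays (adjusted p up to 0.176). PHLDA2, which limits placental growth, fell from 325, 394 and 419 to 104, 93.3 and 63.7 (-1.95 ± 0.25; probe set mean -0.69, no call; its 3 probe sets ran from -1.95 to -0.05).

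Among channels and receptors, KCNJ13, an inward rectifier potassium channel of epithelia, rose from 0.879, 3.24 and 1.24 to 54.96, 92.8 and 87.5 (2.39 ± 0.33), and KCND2, a voltage-gated potassium channel, fell from 204, 210.1 and 146 to 35.7, 68.99 and 27.4 (-1.80 ± 0.28). HTR2C, a serotonin receptor, and GABRA5, a GABA receptor subunit, fell (-1.37 and -1.08). In all, 4 of 56 channel genes rose and 1 fell (5 and 3 with the block), and 3 of 46 transmitter receptors and enzymes rose and 2 fell. VLDLR, a lipoprotein receptor, fell from 325, 278 and 268 to 53.9, 104 and 80.5 (-1.72 ± 0.31). It was the 1 call among 27 amino acid and ATF4 response genes (1 higher and 5 lower with the block). Over all genes 3.85% passed the test, and 7.35% with the block.

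The members not yet named gave smaller or less stable calls. Of 229 called genes in the lists, 142 kept their call without any 1 array and 87 lost it in at least 1 of the 6 fits: 53 without ES pool 1, 39 without ES pool 2, 55 without ES pool 3, and 69, 60 and 58 without day 6 pools 1, 2 and 3 (adjusted p up to 0.239). Among those that kept it and stand nowhere above were ADAMTS9, a matrix protease (1.71; probe set mean 0.64, no call; its 4 probe sets ran from -0.13 to 1.71), and ACKR3, a scavenging chemokine receptor (1.32; probe set mean 0.51, no call; its 3 probe sets ran from 0.01 to 1.32). The remaining genes all lost it in at least 1 such fit. Higher among them were, of signalling, the Wnt receptors FZD10 (1.06), ROR2 (1.49) and LGR5 (1.13; probe set mean 0.49, no call), the Wnt antagonist SFRP1 (0.77; probe set mean 0.59, no call), the FGF receptor partner FLRT2 (1.03; probe set mean 0.28, no call), the FGF antagonist IL17RD (0.95; probe set mean 0.47, no call), the retinoid receptor RXRA (1.16; probe set mean 0.72, no call) and the binding protein IGFBP5 (1.11; probe set mean 0.34, no call). Of transcription factors they were SMAD9 (1.29; probe set mean 0.77, no call), IRX5 (1.48), FOXO3 (0.73; probe set mean 0.36, no call), ZEB1 (1.54; probe set mean 0.68, no call), PRDM1 (0.85) and ARNT2 (1.10). Of adhesion, matrix and guidance they were the cadherins CDH7 (1.24; probe set mean 0.57, no call), CDH10 (0.96), CDH11 (1.05; probe set mean 0.64) and FAT1 (1.06), COL9A1 (1.23; probe set mean 0.51, no call), NID2 (1.30), FBN1 (0.86; probe set mean 0.60, no call), NCAN (1.24), EFNA1 (1.37), EPHB3 (0.96; probe set mean 0.88, no call), SEMA5A (0.75; probe set mean 0.49, no call), SEMA6D (1.65; probe set mean 0.92) and PLXNA2 (1.28; probe set mean 0.74, no call). Of neural and channel genes they were VSNL1, a neuronal calcium sensor (1.60), GAD1, which makes GABA (1.88), the glutamate receptor GRM3 (1.31), KCNA5 (1.41), KCNK10 (0.96) and CLCN4 (1.10), and of metabolism and stress genes INSIG1 (0.88; probe set mean 0.74, no call) and TP53I3 (1.003). Lower were ETS1 (-1.55; probe set mean -1.11, no call), ANXA4 (-0.93; probe set mean -0.67, no call), the hyaluronan receptor CD44 (-1.66; probe set mean -1.07), MMP10 (-1.15), GADD45B (-1.05; probe set mean -0.61, no call), KDM4C (-0.84; probe set mean -0.51, no call), HDAC9 (-0.997; probe set mean -0.44, no call), the p53 targets RRM2B (-1.30) and PLK2 (-1.001), the immune genes PSMB8 (-1.09) and MX1 (-1.12), IGFBP6 (-1.02), IGFBP7 (-1.61), and the neuronal genes NEFH (-1.11; probe set mean -1.10, no call) and CHGA (-1.05).

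Some of the genes that rose had a lower mean at the later days without basic fibroblast growth factor. LMO1 read 509 ± 112 at day 6, 93.9 ± 25.97 at day 10 and 187 ± 35.8 at day 17 (mean ± SD, n = 3). In the same order TFAP2A read 670.3 ± 71.1, 173 ± 47.05 and 129.9 ± 39.5, EPAS1 1100 ± 183, 353 ± 89.5 and 243 ± 102, and HAPLN1 1224 ± 592, 427 ± 264 and 169.5 ± 5.74. Others had a higher mean at day 10 than at day 6: LHX2 read 979 ± 415, 3991 ± 769 and 4073 ± 392, and PRTG 3027 ± 535, 6238 ± 82.1 and 2585 ± 963. For SPP1 and TFPI2, which fell by day 6, the day 17 mean was above that of day 6: 152 ± 25.96, 704 ± 320.4 and 1298 ± 172 for SPP1, and 8.98 ± 4.41, 151 ± 66.9 and 485 ± 267 for TFPI2. These comparisons with later days share the day 6 arrays and were not tested here.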

How the data were processed

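Total RNA of H9 cells was measured on 18 arrays of 54675 probe sets, 3 pools in each of 6 groups. The authors' deposited values are linear array intensities, scaled so that the 2% trimmed mean is about equal on every array; their summarisation method is not given in the sources used here. The platform annotation names 1 gene for 41097 probe sets, several for 1801 and none for 11777. The probe set with the highest mean over all arrays, naming 1 gene and cross-hybridising (_x_at) only where no other exists, stood for each of 19775 genes (19738 in the current RefSeq gene table).

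Log2(intensity + 16) was fitted with limma 3.58.1 in R 4.3.3, 1 mean per group over all 18 arrays (12 residual degrees of freedom), a test checked on simulated data. Pool numbers served as a block in an alternative fit. Deviations from the group mean correlated at 0.218, 0.383 and 0.209 between ES and day 6 pools of the same number and at -0.255 to 0.0591 otherwise, although the number 1 of the ES pool is not in its label. Named are the 30 largest changes in each direction among genes whose groups do not overlap and whose approved symbols are no LOC, orf or FAM placeholders, every list member that passed, members needed for a list's count and most cell type markers; 1 of the largest increases is not reported here. The gene lists and members were chosen with earlier results of these data known. Promoters are those of RefSeq (GRCh38.p14).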

Additional observations from a re-analysis of the deposited data

How the results depend on the processing

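The pool number as a replicate block raised the count of genes past the test from 762 to 1454 (832 higher, 622 lower). Restricted to pools 2 and 3, whose numbers the labels give in every group, this replicate block gave 349 (203 and 146). Passages as a block on the 6 arrays alone gave 307 (180 and 127), and leaving out pool 2 of both groups 416 (251 and 165); each of these 3 fits used fewer arrays. Leaving out 1 of the 6 arrays gave 462 to 615 genes, 274 to 375 higher and 184 to 241 lower. All other alternatives gave 561 to 929 genes. Of these, leaving out pool 2 of the 4 neuroepithelial groups, whose median signals were higher, gave 891 (488 higher and 403 lower). Of 250 called genes named here, 105 stayed past the test in every alternative, and all 250 kept their sign. The block ended no call of a named gene. Averaging a gene's probe sets ended the call of 53. Which probe set reads a gene's transcripts best was not tested, and low signals, without detection calls, limit the folds of genes near 0 in 1 group.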
